A study of Mus musculus with 10 samples.

Results

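The mevalonate pathway enzymes studied here are the 8 genes Acat2, Hmgcs1, Mvk, Pmvk, Mvd, Idi1, Fdps and Ggps1. They were picked by gene symbol, by a rule that uses no measured value, and do not include every step of the pathway. The pathway was chosen with earlier results of these data known, so the counts below are no independent finding. From these data the study had reported a transient early enrichment of cholesterol biosynthesis genes, with Hmgcs1 among them. Each of the 8 symbols named exactly 1 of the 40779 transcribed units (TUs). Per the study's methods a TU is a stretch of labelled RNA from 1 strand, with brief gaps bridged. Stretches over several larger genes were split at gene starts where the signal rose. All 8 members were among the 28459 TUs tested, of which 14997 had a symbol. Nascent RNA had been measured by TT_chem-seq, in which RNA made during a short pulse of 4-thiouridine is fragmented, captured and sequenced, so that introns and exons are read together. The cells were E14 mouse embryonic stem cells with the genotype SOX2-FKBP, in which the degrader dTAG-13 directs the tagged SOX2 protein to degradation. Untreated cells (NT) had received DMSO, and the other groups had been given 500 nM dTAG-13 and were labelled at 0.5, 1, 2 and 6 hours post depletion (hpd), with 2 libraries in each of the 5 groups. All groups carried the tagged SOX2, were labelled with 2 mM 4-thiouridine for 10 min, and grew without serum in LIF, PD0325901 (1 µM) and CHIR99021 (3 µM). Per the study's methods the tagged lines were clonal, the medium was refreshed before treatment and depletions begun at different times were collected at the same moment. Cells without the tag were not analysed here, so an effect of SOX2 loss and one of the compound cannot be told apart. No DMSO group was matched to each time, so an effect of the time since handling cannot be told apart from one of depletion. No label says that the replicates came from separate cultures, so p-values measure the spread between these libraries, which may be technical.

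The mevalonate pathway turns acetyl-CoA into isoprenoid units, from which cells make cholesterol, ubiquinone, dolichol and the lipid anchors of prenylated proteins. Acat2 and Hmgcs1 assemble the carbon skeleton, Mvk, Pmvk and Mvd phosphorylate and decarboxylate mevalonate to isopentenyl diphosphate, Idi1 isomerises that unit, and Fdps and Ggps1 join units into longer chains. Farnesyl diphosphate, the product of Fdps, is the branch point between sterols and prenylated molecules. Many genes of the pathway are known targets of the sterol-regulated factor SREBP2, which acts at promoters together with NF-Y and Sp1.

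Promoters are shown for 4 members because they cover the pathway's member with the highest level and largest change against NT (Hmgcs1), a member that shares its start region with a divergent gene (Mvk), the member with the smallest errors (Idi1) and the member that passed no test (Ggps1). The windows were taken from RefSeq on GRCm38.p6 and run from 250 bases before to 50 after the annotated start, written 5′ to 3′ on the strand of the gene. Capitals mark a sterol regulatory element (TCACNCCAC) or an NF-Y box (CCAAT, or ATTGG where the match is on the other strand). Their positions are chr13:119690101-119690400 on the plus strand for Hmgcs1, chr5:114444019-114444318 on the plus strand for Mvk, chr13:8885356-8885655 on the plus strand for Idi1, and chr13:14063439-14063738 on the minus strand for Ggps1.
Hmgcs1: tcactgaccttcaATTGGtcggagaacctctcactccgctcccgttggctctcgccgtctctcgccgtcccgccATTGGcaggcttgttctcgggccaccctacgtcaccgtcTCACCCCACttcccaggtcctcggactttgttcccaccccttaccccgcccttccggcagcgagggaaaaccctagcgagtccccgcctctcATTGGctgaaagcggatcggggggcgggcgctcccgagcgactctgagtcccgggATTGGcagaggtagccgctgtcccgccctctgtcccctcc
Mvk: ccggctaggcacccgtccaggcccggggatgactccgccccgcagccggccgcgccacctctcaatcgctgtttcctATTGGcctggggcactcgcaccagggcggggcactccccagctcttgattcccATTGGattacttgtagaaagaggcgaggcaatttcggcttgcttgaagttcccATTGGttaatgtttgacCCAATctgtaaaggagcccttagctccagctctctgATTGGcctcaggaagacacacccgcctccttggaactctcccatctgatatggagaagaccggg
Idi1: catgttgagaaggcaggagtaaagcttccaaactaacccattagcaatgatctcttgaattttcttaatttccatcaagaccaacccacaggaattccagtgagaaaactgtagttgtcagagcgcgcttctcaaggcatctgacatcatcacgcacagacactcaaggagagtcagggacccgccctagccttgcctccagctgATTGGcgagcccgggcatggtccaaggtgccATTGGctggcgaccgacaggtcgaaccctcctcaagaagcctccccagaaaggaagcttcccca
Ggps1: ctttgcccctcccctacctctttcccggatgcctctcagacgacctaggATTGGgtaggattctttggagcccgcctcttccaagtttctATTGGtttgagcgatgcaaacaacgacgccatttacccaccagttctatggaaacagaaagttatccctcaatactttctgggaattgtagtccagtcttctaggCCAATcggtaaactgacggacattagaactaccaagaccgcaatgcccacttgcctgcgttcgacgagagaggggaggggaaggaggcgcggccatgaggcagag

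The promoter table held 8 windows of 7 members, with 2 for Pmvk and none for Fdps. The sterol regulatory element in the form searched was found on either strand only in the window of Hmgcs1, at position -137 from the start, and in 1.24% of all 32851 windows. The NF-Y box was found in 6 of the 8 windows, those of Hmgcs1, Mvk, Mvd, Idi1 and Ggps1 and 1 of Pmvk, and in 37.4% of all windows. The Pmvk window with the box (chr3:89454291-89454590) lies upstream of the counted TU, and the window at the start of that TU (chr3:89459321-89459620) held none. The Mvd window (chr8:122443373-122443672) lies inside the counted TU, which starts further upstream at 122444663. The NF-Y box occurred 4 times in the Hmgcs1 window, 5 times in that of Mvk, 2 times in that of Idi1 and 3 times in that of Ggps1, so the member that was not called held it as well. An Sp1 box (GGGCGG) was found in 5 of the 8 windows, those of Acat2, Hmgcs1, Mvk, Mvd and Idi1, and in 35.7% of windows. A SOX core (ACAAAG) was found only for Hmgcs1, at position -112, against 18.7% of windows, and its variant ACAATG for none, against 12.6%. The E-box CACGTG was found in 0 of the 8 member windows and in 7.15% of all. No motif searched contains another, and a match is a string of letters rather than a measured site.

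The libraries held 11131490 to 25854106 fragments in all, and a member's TU held between 116 fragments (Pmvk, NT replicate 2) and 7561 (Hmgcs1, 2 hpd replicate 1). All 10 embryonic stem cell markers examined were present, with a summed level of 4430 to 4860 CPM (counts put on a common depth with TMM factors) in NT and 3820 to 4060 CPM at 6 hpd. Of 12 markers of other cell types, 9 had a TU, with a summed 16.7 to 22.4 CPM in NT, 29.7 to 30.5 after 0.5 h, 24.0 to 28.8 after 1 h, 24.9 to 30.6 after 2 h and 22.3 to 27.4 after 6 h. Cdx2 was at 0 in at least 1 library, and Elf5, T and Sox1 had no TU in the table. Of the 10 stem cell markers 1, 3, 4 and 5 were called down at 0.5, 1, 2 and 6 hpd (against 0.787%, 3.61%, 5.57% and 9.2% of all tested TUs), with the lowest values for Dppa5a (-1.04 ± 0.16 at 1 hpd) and Klf4 (-1.04 ± 0.17 at 6 hpd). Of the 6 other markers that were tested, Eomes, a factor of mesendoderm and trophoblast, rose by 1.52 ± 0.21, 1.64 ± 0.20 and 1.79 ± 0.20 at 0.5, 1 and 2 hpd and fell by 1.33 (SE 0.19) from 2 to 6 hpd. Its level ran from 2.15 to 9.18 CPM over the libraries. Gata6, an endoderm factor, rose at 2 hpd (1.14 ± 0.31), whereas Gata4, another, had values of -0.45 to -0.23 against NT and was not called. The calls up were thus 1, 1, 2 and 0 of 6 in time order, against 0.527%, 2.15%, 4.26% and 6.61% of all tested TUs, and the 0 is near the background. The part of these marker changes in the results below was not tested. In such bulk samples, fewer cells of a type and less RNA per cell cannot be told apart. NT replicate 1 lay above NT replicate 2 in all 8 members, so the calls against NT that were lost without 1 of the NT libraries are given with each gene.

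After dTAG-13, 7 of the 8 genes rose, and 6 of these fell again from 2 to 6 hpd, all but Pmvk (adjusted p = 0.081). Without either 6 hpd library only 2 of these falls were called. Ggps1 was not called at any time. At 0.5 hpd only Hmgcs1 was called up (1 of 8 members, against 0.527% of all tested TUs). The count was 7 after 1 h (against 2.15%), the same 7 after 2 h (against 4.26%) and 0 after 6 h (against 6.61%). Against NT 0 members were called down at any time, 0 had a negative change at an unadjusted p under 0.05, and DESeq2 called 0 down. Of all tested TUs 0.787%, 3.61%, 5.57% and 9.2% were called down in time order, so a count of 0 among 8 is near the background. Here and below, called means a Benjamini-Hochberg adjusted p under 0.05 over all tested TUs in edgeR's quasi-likelihood test. At 6 hpd 1 member (Hmgcs1) had an unadjusted p under 0.05, and DESeq2 also called 0. The median log2 fold change of the members was 0.33, 0.75, 0.90 and 0.15 in time order, beside medians of -0.022, -0.043, -0.040 and -0.036 over all tested TUs. Without NT replicate 2 the TUs called up over the whole table also fell in number, from 611 to 204 at 1 hpd, 1213 to 383 at 2 hpd and 1880 to 749 at 6 hpd. The count of members at 1 hpd depended on single libraries. It was 3 (Hmgcs1, Idi1 and Fdps) without NT replicate 2, 4 without 1 hpd replicate 1, 5 without 1 hpd replicate 2, and 6 or 7 without any other library, whereas the median at 1 hpd was 1.1 without NT replicate 1. The count at 2 hpd was 6 without NT replicate 2 and 7 without each other library. The 1 call at 0.5 hpd became 0 without NT replicate 2 or without any of the 4 libraries at 0.5 and 1 hpd, and without NT replicate 1 it was that of Fdps in place of Hmgcs1.

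**Figure D1:**
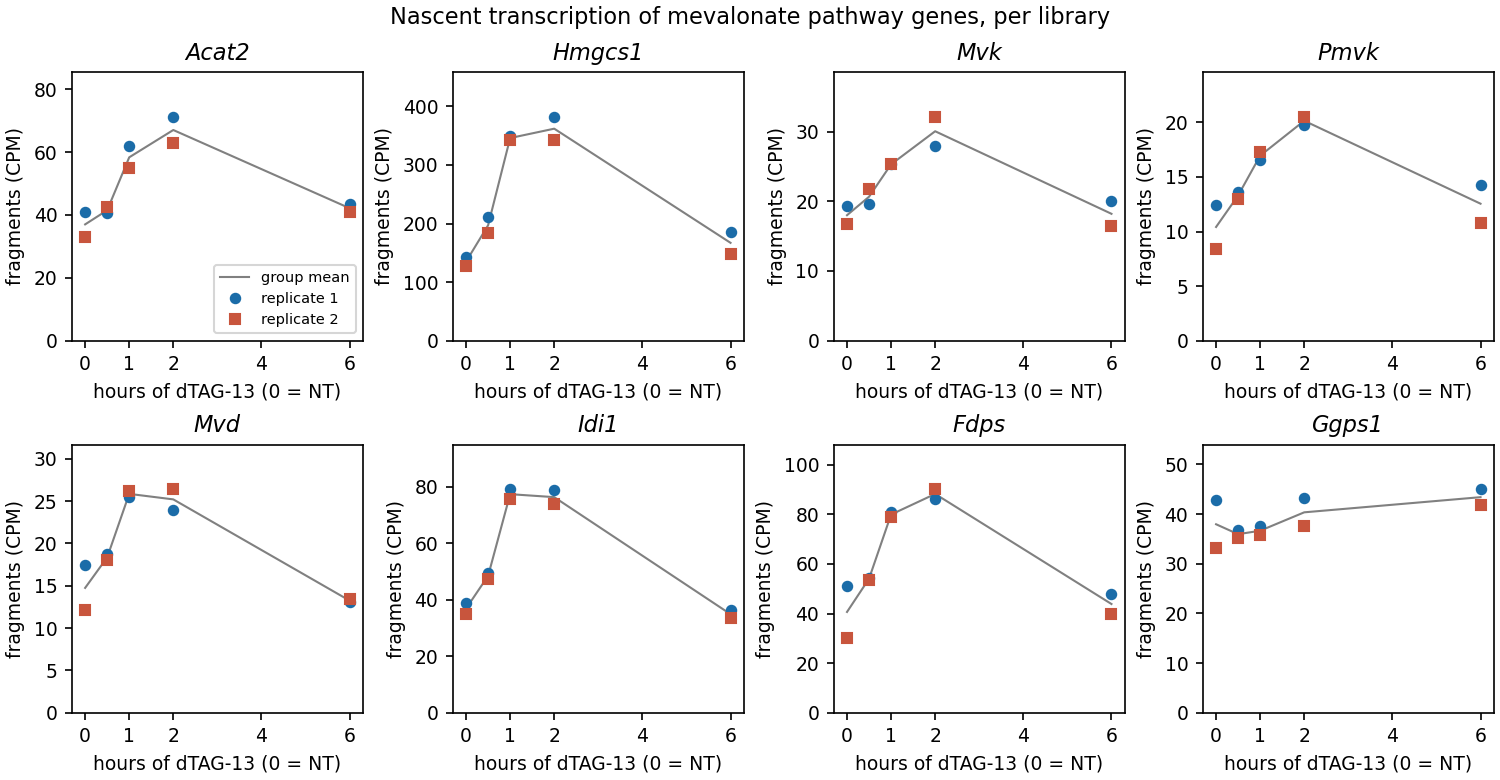
Each panel plots the CPM of 1 gene in each library against hours of dTAG-13, with circles for replicate 1, squares for replicate 2 and a line through the group means. Here 7 genes have their highest mean at 1 or 2 hpd and a lower one at 6 hpd, while Ggps1 stays between 33.1 and 45.0 CPM.

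Acat2, the cytosolic thiolase that joins acetyl-CoA to acetoacetyl-CoA, was counted over a TU of 25.7 kb at chr17:12935037-12960725 (minus strand, mm10), which ran 8 kb past the annotated gene end. Its libraries held 41.1 and 32.9 CPM in NT, 40.6 and 42.4 after 0.5 h, 61.8 and 54.9 after 1 h, 71.2 and 62.9 after 2 h and 43.5 and 40.8 after 6 h. Both libraries at 1 and at 2 hpd lay above both NT libraries, while those at 0.5 and 6 hpd overlapped the NT range. The log2 fold change against NT was 0.66 ± 0.12 (SE, adjusted p = 0.0041) at 1 hpd and 0.86 ± 0.12 (adjusted p = 0.00031) at 2 hpd, against 0.16 ± 0.12 (adjusted p = 0.79) at 0.5 hpd. From 2 to 6 hpd it fell by 0.67 (SE 0.12, adjusted p = 0.016) on the log2 scale, and 82.8% of the rise in mean CPM was gone at 6 hpd. Without NT replicate 1 the values were 0.84 and 1.0 at 1 and 2 hpd. Acat2 was no longer called at 1 hpd without NT replicate 2 (0.53, adjusted p = 0.06) or 1 hpd replicate 1 (0.57, adjusted p = 0.075), and its fall was not called without 2 hpd replicate 1 or either 6 hpd library (adjusted p of 0.08 to 0.14), while the call at 2 hpd was made without each library in turn.

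Hmgcs1, the cytosolic synthase that adds a further acetyl group to form HMG-CoA, had the highest level and the largest change against NT. Its TU of 32.7 kb lay at chr13:119690409-119723064 (plus strand) and ran 15.0 kb past the gene end. Its libraries held 143 and 127 CPM in NT, 211 and 183 after 0.5 h, 350 and 342 after 1 h, 382 and 342 after 2 h and 186 and 148 after 6 h. All 8 depleted libraries, those at 6 hpd included, lay above both NT libraries. Against NT its log2 fold change was 0.55 ± 0.13 (adjusted p = 0.045) at 0.5 hpd, 1.36 ± 0.13 (adjusted p = 1.3e-05) at 1 hpd and 1.43 ± 0.13 (adjusted p = 4.9e-06) at 2 hpd. By size it ranked 64 at 1 hpd and 93 at 2 hpd among the 14997 tested TUs with a symbol. Between 0.5 and 1 hpd it rose by 0.81 ± 0.12 (adjusted p = 0.017), and from 2 to 6 hpd it fell by 1.12 (SE 0.13, adjusted p = 0.00056). At 6 hpd 85.8% of the rise was gone, and the remaining difference of 0.31 ± 0.13 was not called (adjusted p = 0.11), but was called with the replicate number as a block (0.3, adjusted p = 0.024) or with only the NT and 6 hpd libraries (0.32, adjusted p = 0.035). The call at 0.5 hpd was close to the threshold and was lost with RLE factors (adjusted p = 0.061) and without any 1 of the 6 libraries at NT, 0.5 and 1 hpd (adjusted p of 0.057 to 0.37). The rise from 0.5 to 1 hpd kept its size (0.72 to 0.91) but lost its call without any of the 4 libraries it compares, whereas the calls at 1 and 2 hpd held in all 17 alternatives.

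Mvk, mevalonate kinase, adds the first phosphate to mevalonate, and its TU of 21.1 kb at chr5:114444292-114465356 (plus strand) ran 4.76 kb past the gene end. Its libraries held 19.3 and 16.7 CPM in NT, 19.6 and 21.7 after 0.5 h, 25.3 and 25.3 after 1 h, 28 and 32.1 after 2 h and 20 and 16.4 after 6 h. Up to 2 hpd every depleted library exceeded both NT libraries, and at 6 hpd the groups overlapped. The log2 fold change against NT was 0.49 ± 0.14 (adjusted p = 0.047) at 1 hpd and 0.74 ± 0.13 (adjusted p = 0.0022) at 2 hpd, the smallest at both times among the 7 genes called. By 6 hpd it had fallen by 0.73 (SE 0.13, adjusted p = 0.019) from 2 hpd, and 98.0% of the rise was gone. The call at 1 hpd was lost with total counts (0.4, adjusted p = 0.18) and without either NT library, 0.5 hpd replicate 1 or either 1 hpd library (0.41 to 0.61), and that of the fall with total counts (adjusted p = 0.055) and without 2 hpd replicate 2 or either 6 hpd library (adjusted p of 0.055 to 0.19).

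Pmvk, phosphomevalonate kinase, adds the next phosphate and had the fewest fragments. Its TU of 17 kb at chr3:89459570-89476526 (plus strand) ran 7.52 kb past the gene end. Its libraries held 12.4 and 8.43 CPM in NT, 13.6 and 13 after 0.5 h, 16.6 and 17.3 after 1 h, 19.8 and 20.5 after 2 h and 14.3 and 10.8 after 6 h. The NT libraries differed from each other more than the libraries at 1 or 2 hpd did, and the 6 hpd libraries overlapped them. Against NT the log2 fold change was 0.70 ± 0.18 (adjusted p = 0.027) at 1 hpd and 0.95 ± 0.17 (adjusted p = 0.0023) at 2 hpd. The difference between 6 and 2 hpd was -0.69 ± 0.17 and was not called (adjusted p = 0.081) except with the replicate number as a block (adjusted p = 0.0075), and 78.1% of the rise in mean CPM was gone at 6 hpd. At 1 hpd the value was 1.0 without NT replicate 1, and the call was lost with total counts (0.61, adjusted p = 0.074) and without NT replicate 2 (0.47), 1 hpd replicate 1 (0.73) or 1 hpd replicate 2 (0.67), with adjusted p of 0.12 to 0.26. The call at 2 hpd held in all 17 alternatives (0.7 to 1.3).

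Mvd, the decarboxylase that yields isopentenyl diphosphate, was counted over 25.2 kb at chr8:122419437-122444663 (minus strand), of which 14.2 kb lay past the gene end. Its libraries held 17.4 and 12.1 CPM in NT, 18.7 and 18.0 after 0.5 h, 25.5 and 26.2 after 1 h, 24.0 and 26.4 after 2 h and 13.1 and 13.4 after 6 h. It was among the 2 members whose mean was highest at 1 rather than 2 hpd, and both 6 hpd libraries lay within the NT range. Its log2 fold change against NT was 0.80 ± 0.15 (adjusted p = 0.004) at 1 hpd and 0.77 ± 0.15 (adjusted p = 0.0036) at 2 hpd. From 2 to 6 hpd it fell by 0.92 (SE 0.15, adjusted p = 0.0078), to a mean 89.7% of NT, a difference from NT of -0.16 ± 0.16 that was not called (adjusted p = 0.52). Without NT replicate 1 both rises were 1.1, whereas without NT replicate 2 neither was called (0.59 and 0.53, adjusted p = 0.052 and 0.056), and the fall from 2 hpd was not called without 2 hpd replicate 2 or either 6 hpd library (adjusted p of 0.059 to 0.1), whereas the fall from 1 hpd (adjusted p = 0.0014) held in all 17 alternatives.

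Idi1, isopentenyl diphosphate isomerase, makes the allylic unit that starts chain growth, and its changes were the most precisely measured (SE of 0.10 to 0.11). Its TU of 13.5 kb at chr13:8885636-8899169 (plus strand) ran 6.77 kb past the gene end. Its libraries held 38.8 and 35 CPM in NT, 49.4 and 47.5 after 0.5 h, 79.1 and 75.6 after 1 h, 78.8 and 73.8 after 2 h and 36.3 and 33.5 after 6 h. At 0.5, 1 and 2 hpd the groups were apart from NT, and at 6 hpd they overlapped. The log2 fold change against NT was 1.07 ± 0.10 (adjusted p = 2e-05) at 1 hpd and 1.05 ± 0.10 (adjusted p = 1.2e-05) at 2 hpd, after 0.39 ± 0.10 (adjusted p = 0.091) at 0.5 hpd. The 0.5 hpd value was called when only TUs averaging 50 or more fragments were tested (0.4, adjusted p = 0.035) and with the replicate block (0.39, adjusted p = 0.012). From 0.5 to 1 hpd it rose by 0.67 ± 0.10 (adjusted p = 0.016), a call lost without any of the 4 libraries compared (0.64 to 0.70). The fall from 2 to 6 hpd, by 1.13 (SE 0.10, adjusted p = 0.00025), had the rank 2 by p among the 14997 tested TUs with a symbol, and this call and those at 1 and 2 hpd held in all 17 alternatives. Its mean at 6 hpd was 94.7% of NT.

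Fdps, farnesyl diphosphate synthase, makes the product at the branch point. Its TU of 12.3 kb at chr3:89090042-89102356 (minus strand) ran 3.54 kb past the gene end. Its libraries held 51.3 and 30.0 CPM in NT, 54.5 and 53.6 after 0.5 h, 80.9 and 78.9 after 1 h, 86.3 and 90.1 after 2 h and 48.0 and 39.7 after 6 h. The NT libraries were far apart and enclosed both 6 hpd libraries, whereas the 1 and 2 hpd libraries agreed closely with each other. Against NT the log2 fold change was 0.97 ± 0.17 (adjusted p = 0.0032) at 1 hpd and 1.11 ± 0.17 (adjusted p = 0.00069) at 2 hpd. The size depended on the NT library kept. It was 1.4 and 1.6 at 1 and 2 hpd without NT replicate 1 and 0.66 and 0.78 without NT replicate 2, called each time. Without NT replicate 1 the differences after 0.5 h (0.85, adjusted p = 0.025) and 6 h (0.56, adjusted p = 0.022) passed as well, against 0.41 ± 0.18 (adjusted p = 0.44) and 0.10 ± 0.18 (adjusted p = 0.73) with all libraries. From 2 to 6 hpd Fdps fell by 1.01 (SE 0.17, adjusted p = 0.012), and 93.3% of the rise was gone, a call lost without 2 hpd replicate 2 or either 6 hpd library (adjusted p of 0.052 to 0.14).

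Ggps1, geranylgeranyl diphosphate synthase, extends farnesyl diphosphate for protein prenylation, and it alone among the 8 was not called. Its TU of 24.0 kb at chr13:14039650-14063646 (minus strand) ran 12.8 kb past the gene end. Its libraries held 42.8 and 33.1 CPM in NT, 36.8 and 35.1 after 0.5 h, 37.5 and 35.8 after 1 h, 43.2 and 37.5 after 2 h and 45.0 and 41.8 after 6 h. The libraries overlapped the NT range at every time. Its log2 fold change against NT was -0.08 (95% interval -0.35 to 0.19) after 0.5 h, -0.05 (-0.33 to 0.22) after 1 h, 0.09 (-0.18 to 0.36) after 2 h and 0.19 (-0.08 to 0.46) after 6 h. These intervals leave out a change of the size seen in Hmgcs1, Idi1 or Fdps at 1 and 2 hpd, but not a small one. Its sign against NT turned at 0.5 and 1 hpd without NT replicate 1 (0.12 and 0.16), and at 2 hpd without NT replicate 2 (-0.085), without 2 hpd replicate 1 (-0.019) or with total counts (-0.031).

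**Figure D2:**
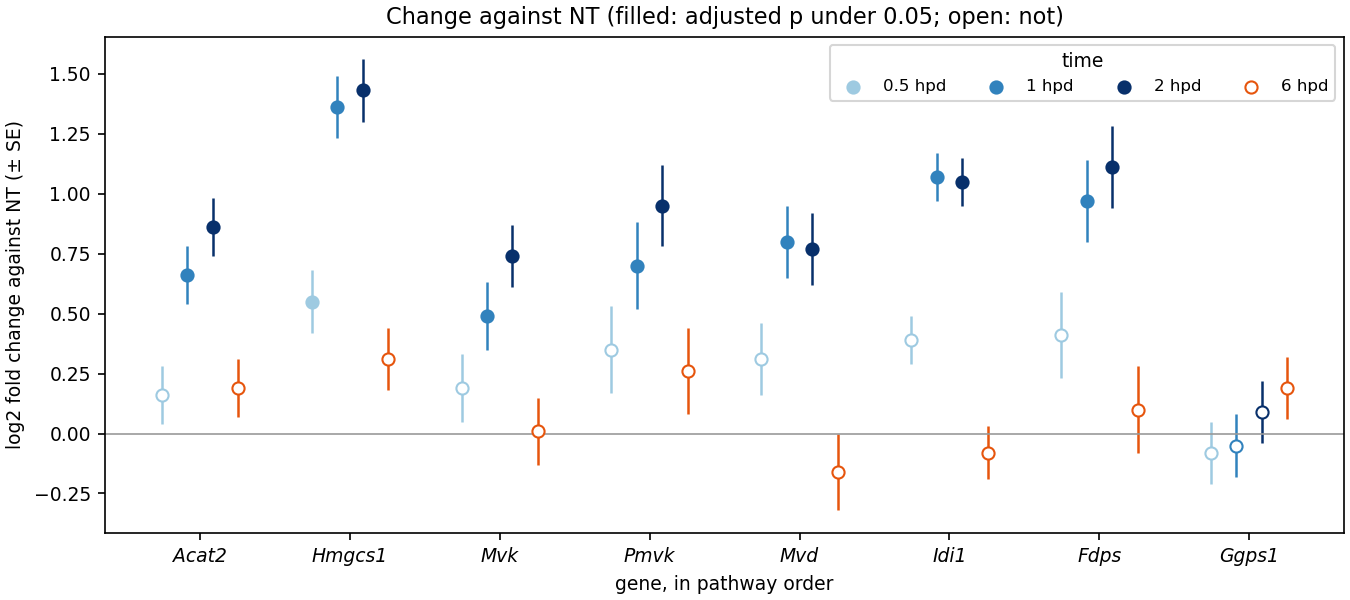
Points give the log2 fold change against NT of each gene in pathway order with its SE, coloured by time, filled where called and open where not. Filled points mark 7 genes at 1 and 2 hpd, Hmgcs1 also at 0.5 hpd, no gene has one at 6 hpd, and Ggps1 stays within -0.08 to 0.19.

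The time of the highest mean was 2 hpd for Acat2, Hmgcs1, Mvk, Pmvk and Fdps, and 1 hpd for Mvd and Idi1. The data did not separate the 2 times. Between 1 and 2 hpd 0 of 8 members were called up or down by edgeR, 0 at an unadjusted p under 0.05 and 0 by DESeq2. Of the 28459 tested TUs 6 (0.0211%) were called up and 56 down, so 0 calls among 8 is near the background. The log2 differences ran from -0.04 ± 0.14 (Mvd) to 0.25 ± 0.16 (Pmvk). Between 0.5 and 1 hpd Hmgcs1 and Idi1 were called up, against 3 TUs called in that direction in the whole table (0.0105%). That total was 17 with DESeq2, 14 with only the libraries compared and 57 with the replicate block, and the members' count was 0 without any of the 4 libraries compared. The block also called Acat2 (0.5, adjusted p = 0.012), and the fit of only the libraries compared also called Fdps (0.57, adjusted p = 0.037). The return was called for 6 members from 2 to 6 hpd (against 0.517% of TUs called down) and for 5 from 1 to 6 hpd (against 2.92%), with medians over the 8 of -0.83 and -0.67. In the first comparison Pmvk and Ggps1 were not called, and in the second Mvk (-0.48 ± 0.13, adjusted p = 0.058), Pmvk (-0.44 ± 0.17, adjusted p = 0.17) and Ggps1 (0.24 ± 0.13, adjusted p = 0.32). The fall of Mvk from 1 to 6 hpd was called in 5 of 17 alternatives, which were the replicate block (-0.48, adjusted p = 0.015), only the libraries compared (adjusted p = 0.021), a minimum average of 50 fragments (-0.51, adjusted p = 0.037) and the omission of either 2 hpd library (adjusted p = 0.046 and 0.045). The first count was 2 (Hmgcs1 and Idi1) without either 6 hpd library and 3 without 2 hpd replicate 2. The second was 3 without either 1 hpd library or 6 hpd replicate 2. A joint edgeR test over the 4 times called 7 members, all but Ggps1 (adjusted p = 0.48), against 12.3% of TUs.

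Compared per length, which allows genes to be set against each other, the levels in NT spanned 0.586 to 4.13 CPM per kb of TU. The NT order was Hmgcs1 (4.13 ± 0.35, SD, here and below over 2 libraries), Fdps (3.30 ± 1.2), Idi1 (2.73 ± 0.20), Ggps1 (1.58 ± 0.28), Acat2 (1.44 ± 0.22), Mvk (0.854 ± 0.085), Pmvk (0.614 ± 0.16) and Mvd (0.586 ± 0.15). The libraries of Hmgcs1 and Fdps, of Fdps and Idi1, of Ggps1 and Acat2, and of Pmvk and Mvd overlapped, so these neighbours did not differ beyond their spread. At 2 hpd the order was Hmgcs1 (11.1 ± 0.88), Fdps (7.16 ± 0.22), Idi1 (5.64 ± 0.26), Acat2 (2.61 ± 0.23), Ggps1 (1.68 ± 0.17), Mvk (1.43 ± 0.14), Pmvk (1.19 ± 0.029) and Mvd (1.00 ± 0.067). There the libraries of no neighbours overlapped, and Acat2 had passed Ggps1, by mean, in the order. At 6 hpd Ggps1 (1.81 ± 0.096) was again above Acat2 (1.64 ± 0.073). TUs differ in how far they run past the gene end, so a level per kb is an average over a stretch longer than the gene.

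**Figure D3:**
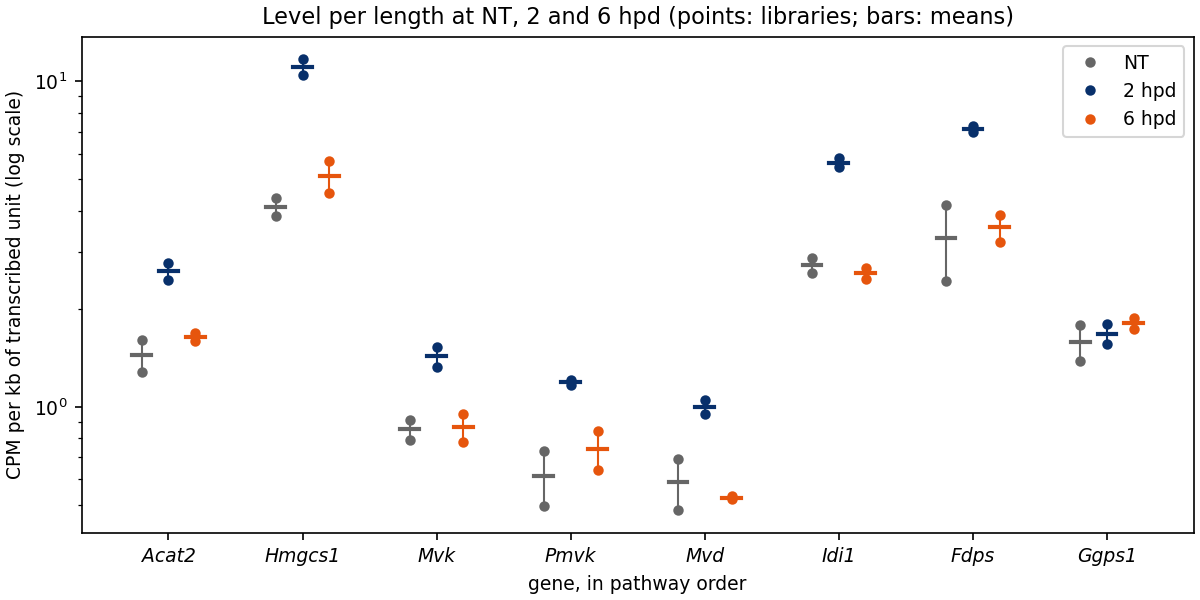
Points give CPM per kb of TU in each library of NT, 2 hpd and 6 hpd on a log scale, with a bar at the group mean. At 2 hpd Hmgcs1 reached 11.1 CPM per kb and Mvd 1.00, and at 6 hpd 7 genes overlapped their NT libraries, Hmgcs1 being the exception.

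The members' profiles followed each other over the 10 libraries. Pearson's r of a gene's log2 CPM with the mean of the other members was 0.930 (Mvd) to 0.987 (Fdps) for the 7 genes called and 0.0355 for Ggps1, as a description of points that share their libraries. Among 3009 other genes with enough fragments and variation, the most alike to the members' mean profile were Msmo1 (r = 0.987), Lss (0.981), Dhcr7 (0.980), Insig1 (0.980) and Neil2 (0.976). Msmo1, Lss and Dhcr7 encode sterol-forming enzymes, Insig1 a sterol-dependent regulator of SREBP processing, and Neil2 a DNA glycosylase of base excision repair. Their log2 fold changes at 1 and 2 hpd were 0.90 to 1.49, which follows from how they were chosen and is given as a description.

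The genes next to the pathway were grouped by branch. Of 13 enzymes from squalene to cholesterol, 11 rose at 1 hpd (against 2.15% of all tested TUs) and 11 at 2 hpd (against 4.26%), with medians of 0.70 and 0.77. At 0.5 hpd 0 were called, near the 0.527% and 0.787% of all tested TUs called up and down. There 8 had a positive change at an unadjusted p under 0.05 and DESeq2 called 0. The values ran from Ebp, a sterol isomerase (-0.09 ± 0.14 at 1 hpd and -0.07 ± 0.14 at 2 hpd, not called), to Lss, lanosterol synthase (1.15 ± 0.13 and 1.49 ± 0.13). Fdft1, which takes farnesyl diphosphate into the sterol branch, rose by 0.81 ± 0.099 at 1 hpd. From 2 to 6 hpd 9 of the 13 fell (against 0.517%), and at 6 hpd 0 were called above NT (1 at an unadjusted p under 0.05, 0 by DESeq2) and 1 (Ebp, -0.66) was called below it, both near the 6.61% and 9.2% of all tested TUs called up and down. Without each library in turn the count at 1 hpd was 9 to 11 and that at 2 hpd 10 to 11, but the count of falls was 4 without 6 hpd replicate 2. Ebp's call was lost without NT replicate 2 or 6 hpd replicate 2.

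Of 15 tested genes that act after farnesyl or geranylgeranyl diphosphate on the way to products other than sterols, edgeR called 0 at every time. With 2.15% of all tested TUs called up and 3.61% called down at 1 hpd, and 4.26% and 5.57% at 2 hpd, a count of 0 among 15 is near the background and is no result about this branch. At 1 hpd 2 of them, both with negative values, had an unadjusted p under 0.05, at 2 hpd 4 with positive and 4 with negative values did, at 6 hpd 2 with positive values did, at 0.5 hpd 0 did, and DESeq2 called 0 at each time. Their medians were -0.039 at 1 hpd and -0.012 at 2 hpd. The values at 1 hpd ran from Srd5a3, a dolichol enzyme (-0.47 ± 0.14, adjusted p = 0.054), to Pggt1b, a subunit of an enzyme that prenylates proteins (0.24 ± 0.12), and those at 2 hpd from Rce1, a protease of prenylated proteins (-0.41 ± 0.17), to Pdss2, of ubiquinone side chain synthesis (0.34 ± 0.13). Leaving out 1 library gave at most 2 calls, at 2 hpd. The difference between the 2 branches was not tested.

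Of 15 genes of sterol sensing, uptake and export, 5 rose and 2 fell at 1 hpd, 4 rose and 3 fell at 2 hpd, and 1 rose at 6 hpd. The shares called up over all tested TUs were 2.15%, 4.26% and 6.61% at these times, and those called down 3.61% and 5.57% at the first 2, so the single rise at 6 hpd is near the background share. The largest rise was that of Insig1 (0.91 ± 0.12 and 1.05 ± 0.12 at 1 and 2 hpd). Srebf2, which encodes SREBP2, rose by 0.48 ± 0.099 and 0.68 ± 0.10, and it was the gene still called at 6 hpd (0.33 ± 0.099, adjusted p = 0.036). The cholesterol exporters Abca1 (-0.56 ± 0.11) and Abcg1 (-0.61 ± 0.14) fell at 2 hpd. At 1 hpd the lowest value was that of Nr1h3, a sterol-activated receptor (-0.52 ± 0.25, not called). Without NT replicate 2 only 1 rise was called at 1 hpd and 0 falls at 2 hpd. Without 1 hpd replicate 1 also only 1 rise was called at 1 hpd. The falls at 1 hpd were 0 without either NT or either 1 hpd library. The rises at 6 hpd were 0 without NT replicate 2 or any library at 1 or 6 hpd, and at most 3 without another library.

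Of the 3 genes that supply acetyl-CoA, Acly (ATP citrate lyase) rose by 0.48 ± 0.12 at 1 hpd and 0.66 ± 0.12 at 2 hpd, and Acss2 (an acetyl-CoA synthetase) by 0.43 ± 0.12 at 2 hpd. Slc25a1, the mitochondrial citrate carrier, fell at 1 hpd (-0.57 ± 0.15) and 6 hpd (-0.51), against -0.37 ± 0.15 (not called) at 2 hpd. Every one of these calls was lost without NT replicate 2, and those at 1 and 6 hpd also without NT replicate 1 or either library of the later time compared. Of the isozymes and paralogs, Acat3 held only 8 to 30 fragments a library and was not called (-0.57 ± 0.39 at 1 hpd), and reads could be shared between it and Acat2. Acat1 and Idi2 had no TU of that name and were not analysed here.

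**Figure D4:**
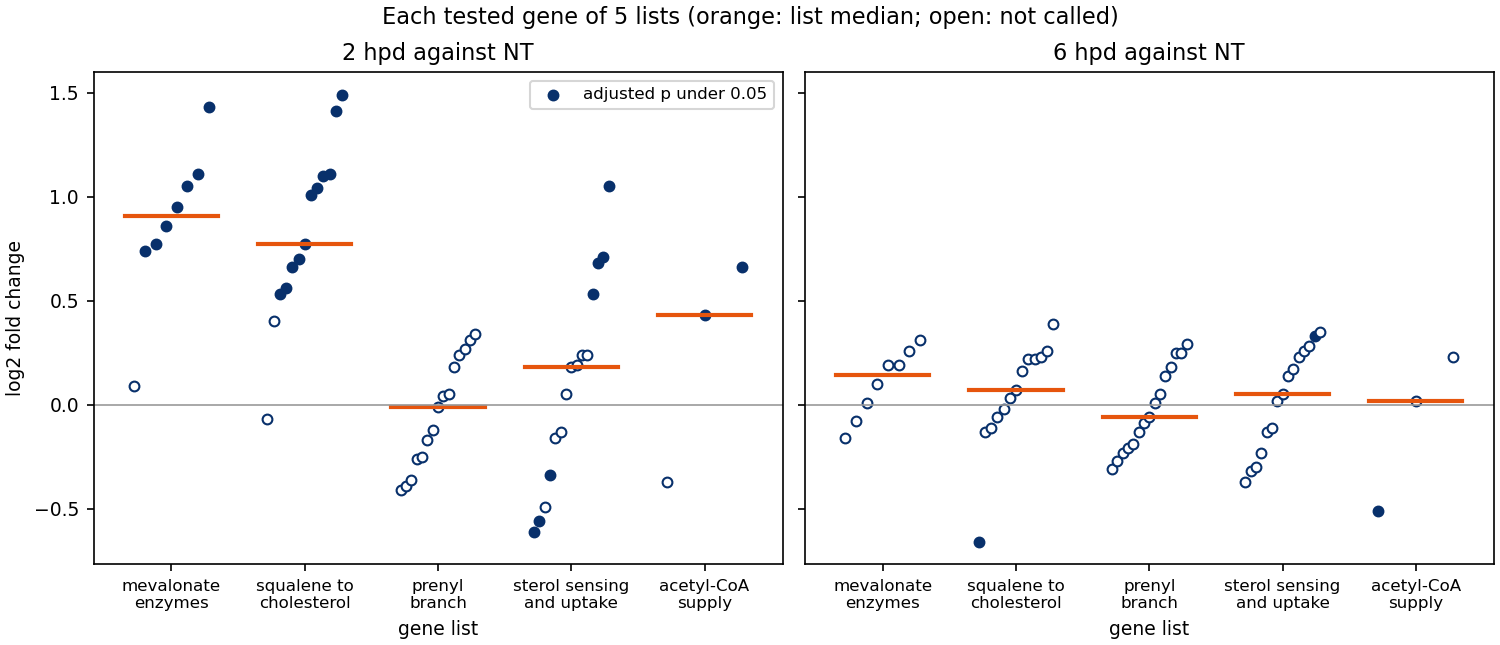
Each point is the log2 fold change against NT of 1 tested gene in 1 of 5 lists, at 2 hpd (left) and 6 hpd (right), filled where called, with an orange bar at the list median. At 2 hpd the medians are 0.90 for the mevalonate enzymes, 0.77 for the enzymes from squalene to cholesterol and -0.012 for the prenyl branch, and at 6 hpd 0.15, 0.072 and -0.056.

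The TUs beside the members were compared with them at the same times. Mvk and Mmab, a cobalamin enzyme gene on the other strand, start 279 bp apart. Mmab held 15.5 and 10.5 CPM in NT, 12.8 and 12.4 at 1 hpd, and 14.0 and 13.3 at 2 hpd. Its log2 fold changes of -0.05 ± 0.19 and 0.06 ± 0.18 were not called. At Acat2 an unnamed TU that starts 201 bp inside the gene and runs the other way held 7.74 and 5.81 CPM in NT and 10.8 and 10.9 at 2 hpd, when it was called up (0.68 ± 0.17, adjusted p = 0.02), after 0.57 ± 0.17 (adjusted p = 0.071) at 1 hpd. Most of this TU lies antisense within Wtap, which held 291 and 280 CPM in NT. At Ggps1 an unnamed TU with a mean of 5260 fragments starts 1021 bp inside the gene's TU and runs upstream on the other strand. Its values were 0.30 ± 0.14 (adjusted p = 0.29) at 1 hpd and 0.47 ± 0.14 (adjusted p = 0.053) at 2 hpd. The TUs that run upstream on the other strand at Hmgcs1, Idi1 and Fdps held means of only 29.8, 23.1 and 19.0 fragments. They and 9330133O14Rik beside Mvd were not called at 1 or 2 hpd. The TU at Hmgcs1 starts 2925 bp inside the gene's TU, and 9330133O14Rik starts 1009 bp inside that of Mvd. The upstream TU at Pmvk held a mean of 4.4 fragments and was not tested. Wtap, directly upstream of Acat2 on the same strand (0.08 ± 0.11 and 0.03 ± 0.11 at 1 and 2 hpd), and Pbxip1, directly upstream of Pmvk (-0.01 ± 0.15 and 0.12 ± 0.15), were not called. Same-strand neighbours were added after the files had been seen. Genes on the opposite strand overlapped 49.9% of the Hmgcs1 TU (Nim1k) and 23.6% of that of Mvd (Zc3h18), and neither was called at 1 or 2 hpd. The largest such overlap was at Ggps1, where an unnamed antisense TU with a mean of 176 fragments covered 76.8% of the gene's TU and was not called at any time (-0.09 ± 0.14 at 1 hpd and -0.08 ± 0.14 at 2 hpd).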

How the data were processed

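TT_chem-seq libraries of 5 groups of 2 were analysed. The authors deposited raw fragment counts per TU without normalization, and TU positions in bp. Per the study's methods and processing notes, reads were aligned to mm10 with BWA 0.7.17-r1188, filtered with SAMtools 1.10, freed of duplicates with Picard 2.12.0 and split by strand, and TUs were defined on the pooled data by a hidden Markov model. Deposited transcript starts were 1 bp below the RefSeq start for 7265 of 14891 symbols and equal for 185, so starts are likely 1 bp low. A TU was tested if 2 or more libraries held over 10 fragments of it, which left out 12320 TUs with 0.316% of fragments. edgeR 4.0.16 (R 4.3.3) was fitted to all 10 libraries (TMM factors, 1 coefficient for each group), and 8 contrasts and a joint test were taken with quasi-likelihood F-tests. The SE is the log2 fold change over the square root of F. The biological coefficient of variation was 10.0%, and replicates correlated at r of 0.985 to 0.990 across TUs. CPM used TMM factors, and log2 CPM a prior count of 2. Similar genes needed a mean of at least 50 fragments and a range of group means of 0.5 in log2 CPM. Promoter windows were searched in Python 3.11.15. The procedure was tested on simulated data. The members, the lists and the rule for named genes (members, opposite-strand and same-strand neighbours, the 5 most alike genes, list extremes and isozymes) were chosen with earlier results of these data known. Fdft1, Srebf2, Abca1 and Acss2 were named besides, outside this rule. Alternatives were DESeq2 1.42.0, RLE factors, total counts, other count filters, a replicate block, a fit of just the compared libraries, and leaving out each library. For the gene lists, leaving out libraries was chosen after seeing the data. Some genes of the lists are not reported here.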

Additional observations from a re-analysis of the deposited data

How the results depend on the processing

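Over all member values and contrasts, 430 of 448 values kept their direction and side of the threshold under settings other than leaving out a library, while 4 turned sign, 10 gained a call and 4 lost it. When a library was left out 577 of 640 did, while 14 turned sign, 4 gained a call and 45 lost it. Having 2 libraries a group limits the precision. The cause of the following changes was not tested. The count of members called up at 0.5 hpd was 0 with RLE factors and 2 where TUs needed an average of 50 counts, and that at 6 hpd was 1 with only the libraries compared. The median from 0.5 to 1 hpd was 0.44 with total counts. With total counts the sign turned for Ggps1 from 0.5 to 1 hpd (-0.028) and at 2 hpd (-0.031) and for Mvk at 6 hpd (-0.073), and with that filter on average counts for Mvk at 6 hpd (-0.036). Total counts moved the median of all TUs to -0.13, -0.16 and -0.13 at 1, 2 and 6 hpd.

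Without 1 library, members called up ranged from 0 to 1 at 0.5 hpd, 3 to 7 at 1 hpd, 0 to 1 at 6 hpd (1 without NT replicate 1) and 0 to 2 from 0.5 to 1 hpd, and members called down from 2 to 6 between 2 and 6 hpd and 3 to 6 between 1 and 6 hpd. The members' median ranged from 0.56 to 1.1 at 1 hpd and from 0.072 to 0.17 between 1 and 2 hpd, and was lowest there without 2 hpd replicate 1. None of the signs that turned without 1 library belonged to a called value. Against NT at 6 hpd they ranged from -0.21 to 0.56 for Fdps, -0.14 to 0.013 for Idi1, -0.38 to 0.14 for Mvd and -0.12 to 0.16 for Mvk. For Ggps1 they ranged from -0.25 to 0.12 at 0.5 hpd, -0.21 to 0.16 at 1 hpd, -0.085 to 0.28 at 2 hpd and -0.0079 to 0.06 from 0.5 to 1 hpd. Between 1 and 2 hpd they ranged from -0.017 to 0.11 for Hmgcs1, -0.067 to 0.013 for Idi1 and -0.14 to 0.031 for Mvd.

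Groups share replicate numbers, but no label says that a number marks a shared batch. Same-numbered libraries deviated together with correlations of 0.074 to 0.29 over 10 pairs of groups, all positive, which is a hint from the data and not the design. With the replicate number as a block, members called up were 2 at 0.5 hpd and 1 at 6 hpd, members called down were 7 from 2 to 6 hpd, and the TUs called up against NT numbered 524, 1441, 2713 and 3394 at 0.5, 1, 2 and 6 hpd in place of 150, 611, 1213 and 1880, and those called down 596, 1747, 2733 and 4036 in place of 224, 1026, 1585 and 2618. DESeq2 called 1025 down at 2 hpd and 1719 at 6 hpd. Only the libraries compared gave 1751 up at 1 hpd. Between later times the TUs called up and down were 3 and 28 from 0.5 to 1 hpd, 6 and 56 from 1 to 2 hpd, 74 and 147 from 2 to 6 hpd, and 558 and 831 from 1 to 6 hpd. With the block they were 57 and 187, 61 and 209, 415 and 590, and 1405 and 1708. DESeq2 gave 17 and 48 from 0.5 to 1 hpd and 17 up from 1 to 2 hpd. Only the libraries compared gave 14 and 48 from 0.5 to 1 hpd, 2 up from 1 to 2 hpd, and 1155 and 1378 from 1 to 6 hpd, and the average of 50 counts gave 5 up from 0.5 to 1 hpd. Without 1 library the TUs called up against NT ranged from 21 to 225, 204 to 972, 383 to 2060 and 749 to 2596 in time order, lowest without NT replicate 2 and highest without 2 hpd replicate 2, and those called down from 61 to 286, 422 to 1142, 776 to 1670 and 1176 to 2866. Those called down from 2 to 6 hpd ranged from 47 (without 6 hpd replicate 1) to 148, and from 1 to 6 hpd from 302 (without 1 hpd replicate 2) to 954.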
